A study of Mus musculus with 9 samples.

Results

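The nuclear genes for the respiratory chain and the ATP synthase were followed in cultured embryonic mouse heart cells in which DNMT3a or DNMT3b had been knocked down. Members were taken by name: protein-coding genes of the GENCODE GRCm38 annotation whose symbol starts with Nduf, Uqcr or Atp5, together with Sdha to Sdhd, Cyc1 and 6 subunits of cytochrome c oxidase (Cox5a, Cox5b, Cox6b1, Cox6c, Cox7b and Cox7c), with a mean of at least 1 CPM (counts scaled to a common library total) over the 9 libraries. Of 83 gene identifiers that fitted the name rule, 82 stood in the count tables of 43629 genes and 81 reached the limit. Atp5l lay just outside it with a mean of 0.759 CPM, and Ndufb4 and Atp5g2 lay just inside it with 1.58 and 1.89 CPM. The 81 genes comprised 70 subunits (36 of complex I, 4 of complex II, 9 of complex III, 6 of complex IV and 15 of complex V), 8 complex I assembly factors with the prefix Ndufaf, the pair Ndufa4 and Ndufa4l2, and Atp5s, which resembles ATP synthase genes by name but is not counted here as a subunit. Ndufa4 was kept apart because its protein is now counted with cytochrome c oxidase. All 81 genes passed the filter on low counts used for testing, so no member was lost from the fit.

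The cells came from embryos of the outbred mouse strain CD-1, taken at embryonic day 13.5. Ventricles were pooled within a litter, and the cells left after a step that removes quickly attaching cells were cultured for 48 h. They were then transfected with a pool of 4 siRNAs against DNMT3a (3 libraries), a pool of 4 against DNMT3b (3 libraries) or a commercial negative control siRNA (3 libraries), harvested after a further 72 h and sorted magnetically for VCAM1, a surface protein by which cardiomyocytes of the embryo can be picked out. All 3 groups share the culture, the transfection at 0.012 pmol and the sort. DNMT3a and DNMT3b are the enzymes that place new methyl groups on DNA; methylation was not measured here. Libraries are named by group and by the number the labels give them; it is not stated if those of 1 group had their own litters or cultures, and p-values therefore cover the spread among these libraries, part or all of which may be technical.

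Oxidative phosphorylation uses 5 complexes of the inner mitochondrial membrane. Complex I takes electrons from NADH and complex II from succinate; both pass them through coenzyme Q to complex III, from where cytochrome c carries them to complex IV, which reduces oxygen. Protons pumped on the way drive complex V, the ATP synthase. Cardiac muscle depends on this route for most of its ATP, and the demand grows as the heart matures. Assembly factors such as the Ndufaf proteins help to build complex I and are absent from the finished complex. The subunits encoded in mitochondrial DNA all stood at 0 counts in the deposited tables and were not analysed here.

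The targeted genes were low where the labels place the siRNAs. Dnmt3a had 40.3, 52.9 and 46.3 CPM in DNMT3a siRNA libraries, against 232, 269 and 275 CPM in control libraries (log2 fold change −2.48 ± 0.11, standard error; adjusted p = 3.42e-06). Dnmt3b had 1.17, 2.43 and 1.51 CPM in DNMT3b siRNA libraries, against 4.32, 4.26 and 4.32 CPM in control libraries (−1.34 ± 0.23; adjusted p = 0.00816). Reads counted in genes numbered 27852412 to 35896018 per library. CPM values are scaled by the TMM method, and adjusted p-values come from edgeR's quasi-likelihood test with Benjamini-Hochberg adjustment over all 16561 genes tested, with 0.05 as the threshold. In each group 1 library stood apart from the others. Chi-square per degree of freedom over genes was 47.9 and 54.5 for pairs with DNMT3a 2 against 20.2 for the other pair, 25.9 and 22.4 for pairs with DNMT3b 1 against 6.42 for the other pair, and 59.7 and 54.6 for pairs with control 2 against 28.9 for the other pair. Counts of subunits and Ndufaf genes are therefore given without single libraries. They are also given without all libraries numbered 2, which leaves out DNMT3a 2 and control 2 but keeps DNMT3b 1. The 15 cardiomyocyte markers examined were all detected, and so were all 10 fibroblast and matrix markers, whose summed level was 39683 to 43310 CPM in DNMT3a libraries, 37477 to 44256 CPM in DNMT3b libraries and 39229 to 58753 CPM in control libraries. RNA of fibroblast markers was thus present in every library after the sort. In RNA from mixed cells, a change in the number of cells of a type and a change in RNA per cell cannot be told apart.

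Members were well expressed and spread over a wide range when set per length. Their median level was 39.6 CPM, against 15.3 CPM for all genes tested, and the lowest count of any member in any library was 14. Per kilobase of exon, the highest levels belonged to Atp5a1 (215 CPM per kb) and Atp5b (205 CPM per kb), which encode the alpha and beta subunits that form the catalytic head of the ATP synthase. Cox6b1, a complex IV subunit on the side of the intermembrane space, followed with 126 CPM per kb. The lowest subunits were Ndufb4 (0.823 CPM per kb), Ndufb2 (0.874 CPM per kb) and Atp5g1 (1.00 CPM per kb). Exon length merges all annotated transcripts of a gene, 5628 bases for Ndufb2 and 4912 bases for Atp5g1. Levels per kb therefore depend on the annotation as well. Within complexes the highest and lowest genes were Ndufa2 (80.8 CPM per kb) and Ndufb4 in complex I, Sdhd (71.0) and Sdhc (30.5) in complex II, Uqcrfs1 (78.7) and Uqcrb (15.6) in complex III, Cox6b1 and Cox7c (2.25) in complex IV, and Atp5a1 and Atp5g1 in complex V. Subunits of 1 complex, which are present in fixed ratios as proteins, thus differed widely in counted RNA per kb of annotated exon.

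**Figure D1:**
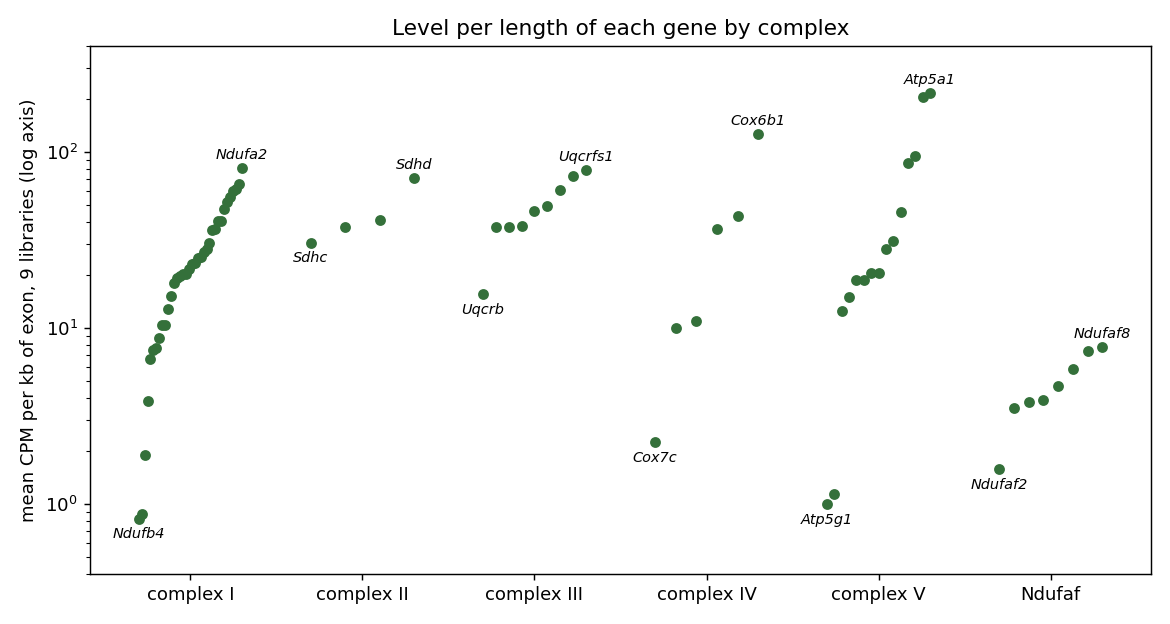
Mean level of each gene over the 9 libraries in CPM per kilobase of exon (log axis), by complex, each point being 1 gene and the points of a complex sorted from low to high. The Ndufaf assembly factors reach at most 7.76 CPM per kb (Ndufaf8), while the median of complex I is 22.3 CPM per kb.

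The assembly factors lay lower as a group, from 1.57 CPM per kb for Ndufaf2 to 7.76 CPM per kb for Ndufaf8, with a median of 4.27 against 22.3 CPM per kb for complex I subunits. The 3 genes of the c ring, the rotor of the ATP synthase, encode the same mature protein but stood far apart: Atp5g3 had 86.6 CPM per kb, Atp5g2 1.13 and Atp5g1 1.00. Several of these levels depend on which reads could be placed. Of all 50-base stretches of a member's transcripts, the share found in no other annotated gene was under 90% for 19 members and under 80% for 8 of them: Ndufaf2 (35.9%), Atp5o (58.4%), Atp5g2 (61.7%), Ndufb6 (68.4%), Ndufa13 (71.5%), Uqcrb (74.5%), Cox7c (77.9%) and Ndufs5 (78.3%). The other 11 were Atp5h (80.1%), Ndufb4 (81.7%), Ndufs3 (82.1%), Ndufa12 (82.3%), Uqcrc2 (82.4%), Ndufb11 (82.5%), Ndufb9 (84.4%), Atp5f1 (85.7%), Cox5b (88.1%), Ndufb5 (88.8%) and Atp5g1 (88.9%), so that Ndufb4 and Atp5g1, among the lowest subunits above, are included. The share also falls where another gene overlaps at the same place. For Ndufaf2, 1955 of 2978 exon bases are overlapped by a gene on the other strand. Reads there can fit 1 place and still be ambiguous between genes. Reads that fit several places were not counted. These 2 cases were not separated, and the levels of the listed genes are uncertain. Exons of 26 members overlap a gene on the other strand, and since the strand setting of the counting is not given in the sources used here, reads of such pairs cannot be told apart. For Atp5o, the annotation used here holds a second, overlapping gene of the same symbol on the same strand. That gene was not among the genes counted, so its bearing on the Atp5o level is not known.

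The promoters of the members were searched for short words of factors known to act on respiratory genes. Of the 81 members, 67 matched a RefSeq promoter window (GRCm38.p6, 250 bases before to 50 after the start), giving 72 windows, which were set beside 21263 windows of 17492 protein-coding genes. The word GCGCATGCG of NRF1, a factor named for respiratory genes, was present on either strand in 11.1% of member windows and 2.35% of all windows. The word AAGATGGCG of YY1 was present in 11.1% against 1.83%, and AAGGTCA of the oestrogen-related receptors (ERR) in 9.72% against 4.08%. The ETS word CCGGAAGT was present in 5.56% against 5.15% and the GC box GGGCGG in 43.1% against 46.2%, so these differed little. The median number of CG dinucleotides was 6.67 per 100 bases in member windows and 4.33 in all windows; CG is the site these enzymes methylate. The members' windows are part of all windows, the shares carry no test, and a word is a match of letters, not a binding site.

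Windows are shown as examples for 3 changed members that hold such words, with matches to the NRF1, ETS, YY1 and ERR words in capitals. Other changed members held none of these words, as given below the sequences. Uqcrc1 rose after either siRNA and holds the NRF1 word on each strand, in overlapping matches that the capitals mark together. Uqcr11, which rose after DNMT3b siRNA, holds an NRF1 and an ETS word. Atp5e, which fell after DNMT3a siRNA, holds an ERR word on the opposite strand.
Uqcrc1 promoter (RefSeq, GRCm38.p6, chr9:108936398-108936697, plus strand): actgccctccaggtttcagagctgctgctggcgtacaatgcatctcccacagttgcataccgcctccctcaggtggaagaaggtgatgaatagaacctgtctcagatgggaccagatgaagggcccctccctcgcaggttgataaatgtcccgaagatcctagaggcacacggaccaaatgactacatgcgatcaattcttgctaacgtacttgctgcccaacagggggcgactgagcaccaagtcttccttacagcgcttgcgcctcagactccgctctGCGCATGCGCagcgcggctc
Uqcr11 promoter (RefSeq, GRCm38.p6, chr10:80406772-80407071, minus strand): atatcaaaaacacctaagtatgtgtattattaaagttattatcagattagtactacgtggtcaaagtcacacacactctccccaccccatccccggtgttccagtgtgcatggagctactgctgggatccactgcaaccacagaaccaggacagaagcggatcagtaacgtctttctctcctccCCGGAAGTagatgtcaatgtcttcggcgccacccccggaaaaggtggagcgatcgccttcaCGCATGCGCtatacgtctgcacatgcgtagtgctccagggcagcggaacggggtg
Atp5e promoter (RefSeq, GRCm38.p6, chr2:174464052-174464351, minus strand): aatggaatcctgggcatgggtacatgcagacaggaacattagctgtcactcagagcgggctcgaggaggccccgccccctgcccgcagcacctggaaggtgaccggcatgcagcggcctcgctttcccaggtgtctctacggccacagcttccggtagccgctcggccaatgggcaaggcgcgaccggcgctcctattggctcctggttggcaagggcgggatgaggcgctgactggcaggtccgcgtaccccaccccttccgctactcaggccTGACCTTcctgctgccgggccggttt
Among members, the NRF1 word stood in 12.9% of the 31 windows of members higher after DNMT3b siRNA and in 9.76% of the 41 other windows, and the YY1 word in 12.9% and 9.76%. The GC box stood in 25.8% of the windows of higher members and in 56.1% of the others. The windows of Uqcrfs1, Ndufv1 and Sdha, which are among the most clearly changed members below, held none of the NRF1, ETS, YY1 and ERR words.

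After DNMT3b siRNA, subunits of every complex were higher than in control libraries. Of the 70 subunits, 35 rose and 0 fell by edgeR (60 higher and 0 lower at an unadjusted p under 0.05), where 3.52% of all genes tested rose (3.93% of the 9512 genes with a mean of at least 10 CPM) and 2.12% fell. The median log2 fold change of the 70 subunits was 0.46, against 0.00 over all genes, and 68 of the 70 values were above 0, against 50.2% of all genes. In 62 of the 70 subunits every DNMT3b library lay above every control library, against 13.8% of all genes. Summed over the 70 subunits, levels were 6174, 5881 and 6231 CPM in DNMT3b libraries and 4443, 4876 and 3990 CPM in control libraries, with no overlap. The count of 35 moved with the library left out: it was 25, 42 and 36 without DNMT3a 1, 2 and 3, 21, 11 and 2 without DNMT3b 1, 2 and 3, and 13, 47 and 8 without control 1, 2 and 3, while the median stayed between 0.38 and 0.54 whichever library was left out. It was 45 by DESeq2 and 47 without all libraries numbered 2.

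**Figure D2:**
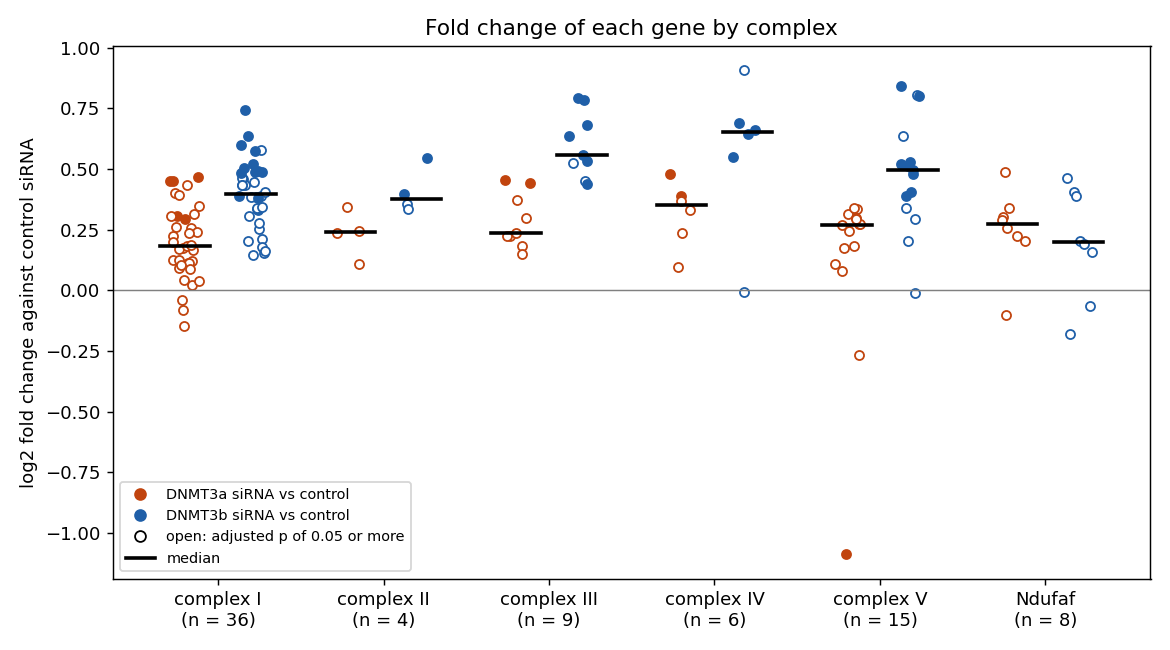
Log2 fold change of each gene against control siRNA (vertical axis), for DNMT3a siRNA (left column of each pair) and DNMT3b siRNA (right column), by complex; each point is 1 gene, filled points passed the test and bars are medians. The DNMT3b medians run from 0.38 in complex II to 0.65 in complex IV, and are 0.20 for the Ndufaf genes; the lone low filled point at −1.09 is Atp5e after DNMT3a siRNA.

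Complex III had the largest share of risen subunits after DNMT3b siRNA, 7 of 9 (median log2 fold change 0.56). Uqcrfs1, the Rieske iron-sulphur protein that takes electrons from coenzyme Q, had 125, 130 and 135 CPM in DNMT3b libraries, against 87.5, 93.2 and 84.4 CPM in control libraries. The groups did not overlap, and the difference, 0.56 ± 0.07 (adjusted p = 0.00143), was past the threshold in all 15 alternatives tried. Cyc1, cytochrome c1, which hands electrons to cytochrome c, had 149, 150 and 166 CPM in DNMT3b libraries, against 96.6, 111 and 90.9 CPM in control libraries (0.64 ± 0.11; adjusted p = 0.00667). The core proteins Uqcrc1 and Uqcrc2 rose by 0.53 ± 0.09 (adjusted p = 0.00785) and 0.44 ± 0.10 (adjusted p = 0.0273), both with separate ranges. Of the 5 small accessory subunits, Uqcr11 (0.79 ± 0.16), Uqcrh (0.78 ± 0.15) and Uqcr10 (0.68 ± 0.16) passed, Uqcrq (0.53 ± 0.14) missed the threshold with an adjusted p that rounds to 0.05, and Uqcrb (0.45 ± 0.18) did not pass. Uqcr11, for example, had 31.4, 32.0 and 32.9 CPM in DNMT3b libraries, against 19.1, 21.8 and 14.7 CPM in control libraries, which did not overlap.

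In complex IV, 4 of the 6 subunits rose after DNMT3b siRNA (median 0.65). Cox5a, a subunit on the matrix side, had 84.3, 85.3 and 99.3 CPM in DNMT3b libraries, against 63.9, 65.2 and 54.3 CPM in control libraries (0.55 ± 0.11; adjusted p = 0.0142). Cox5b, also on the matrix side, had 20.2, 20.8 and 20.6 CPM, against 14.2, 14.0 and 11.1 CPM in control libraries (0.65 ± 0.13; adjusted p = 0.0158). In neither gene did the groups overlap. Cox6b1 (0.69 ± 0.17; adjusted p = 0.0404) and Cox6c, a membrane subunit (0.66 ± 0.16; adjusted p = 0.0363), passed as well. Cox7b had the largest fold change of all members here, 0.91 ± 0.26, but an adjusted p of 0.0867: DNMT3b 1 stood at 97.2 CPM while DNMT3b 2 and 3 had 57.0 and 58.9 CPM, against 41.0, 44.7 and 27.7 CPM in control libraries. Cox7c, a low and partly ambiguous gene, had 2.40, 2.68 and 2.35 CPM in DNMT3b libraries and 2.28, 2.63 and 2.55 CPM in control libraries.

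In complex V, 9 of 15 subunits rose after DNMT3b siRNA (median 0.49). Atp5b, the catalytic beta subunit and the member with the most counts, had 1061, 981 and 1061 CPM in DNMT3b libraries, against 742, 795 and 684 CPM in control libraries (0.48 ± 0.09; adjusted p = 0.0122). The alpha subunit Atp5a1 had 768, 724 and 764 CPM, against 572, 621 and 528 CPM in control libraries (0.39 ± 0.09; adjusted p = 0.0238). Every DNMT3b library lay above every control library for both. The gamma subunit of the central shaft, Atp5c1 (0.51 ± 0.12), passed, but Atp5d (0.34 ± 0.10; adjusted p = 0.0656) and Atp5e (0.30 ± 0.24; adjusted p = 0.536), the delta and epsilon subunits of that shaft, did not. Of the peripheral stalk, which holds the head still, Atp5j (0.53 ± 0.11), Atp5o (0.49 ± 0.13) and Atp5h (0.41 ± 0.10) passed and Atp5f1 (0.20 ± 0.10) did not. The largest rises that passed in any complex were those of the small membrane subunits Atp5k (0.84 ± 0.18; adjusted p = 0.0215) and Atp5j2 (0.80 ± 0.15; adjusted p = 0.0128); Atp5mpl, another small membrane subunit, was at 0.64 ± 0.19 (adjusted p = 0.0793). Of the c ring genes, the abundant Atp5g3 rose by 0.52 ± 0.12 (adjusted p = 0.0247), Atp5g1 was at 0.80 ± 0.22 (adjusted p = 0.0606) and Atp5g2 at −0.01 ± 0.24.

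In complex I, 13 of 36 subunits rose after DNMT3b siRNA and all 36 fold changes were above 0 (median 0.40). Of the 7 core subunits, which carry the electron path, Ndufv1, Ndufs1 and Ndufs7 rose. Ndufv1, the subunit that binds NADH, had 101, 107 and 111 CPM in DNMT3b libraries, against 70.9, 82.7 and 73.3 CPM in control libraries (0.49 ± 0.08; adjusted p = 0.00629). Ndufs1, the largest of its iron-sulphur proteins, had 103, 89.2 and 91.8 CPM, against 75.1, 72.7 and 69.9 CPM in control libraries (0.38 ± 0.08; adjusted p = 0.0143). The groups were apart in both, as they were in all 7 core subunits. Ndufs7, an iron-sulphur protein near the coenzyme Q site, was higher by 0.48 ± 0.10, while Ndufs3, Ndufs8 and Ndufv2 lay between 0.15 and 0.45 and did not pass. Of the 29 accessory subunits, 10 rose. Ndufa1, a small membrane protein needed for assembly, rose most, with 30.3, 31.3 and 31.5 CPM in DNMT3b libraries, against 20.2, 20.1 and 15.3 CPM in control libraries (0.74 ± 0.12; adjusted p = 0.00579), and passed in all 15 alternatives. The others that rose were Ndufb8 (0.64), Ndufb2 (0.60), Ndufb9 (0.57), Ndufb7 (0.52), Ndufb6 (0.50), Ndufb5 (0.49), Ndufa11 (0.49), Ndufa9 (0.39) and Ndufa10 (0.33).

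In complex II, which also works in the citric acid cycle, 2 of 4 subunits rose after DNMT3b siRNA. Sdha, the flavoprotein that oxidises succinate, had 205, 190 and 200 CPM in DNMT3b libraries, against 156, 153 and 142 CPM in control libraries (0.40 ± 0.07; adjusted p = 0.00846). The membrane anchor Sdhd had 98.7, 103 and 106 CPM, against 72.2, 80.4 and 58.3 CPM in control libraries (0.54 ± 0.12; adjusted p = 0.0238). The iron-sulphur subunit Sdhb (0.36 ± 0.10; adjusted p = 0.0628) and the anchor Sdhc (0.34 ± 0.10; adjusted p = 0.0867) did not pass, although in all 4 subunits every DNMT3b library lay above every control library.

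**Figure D3:**
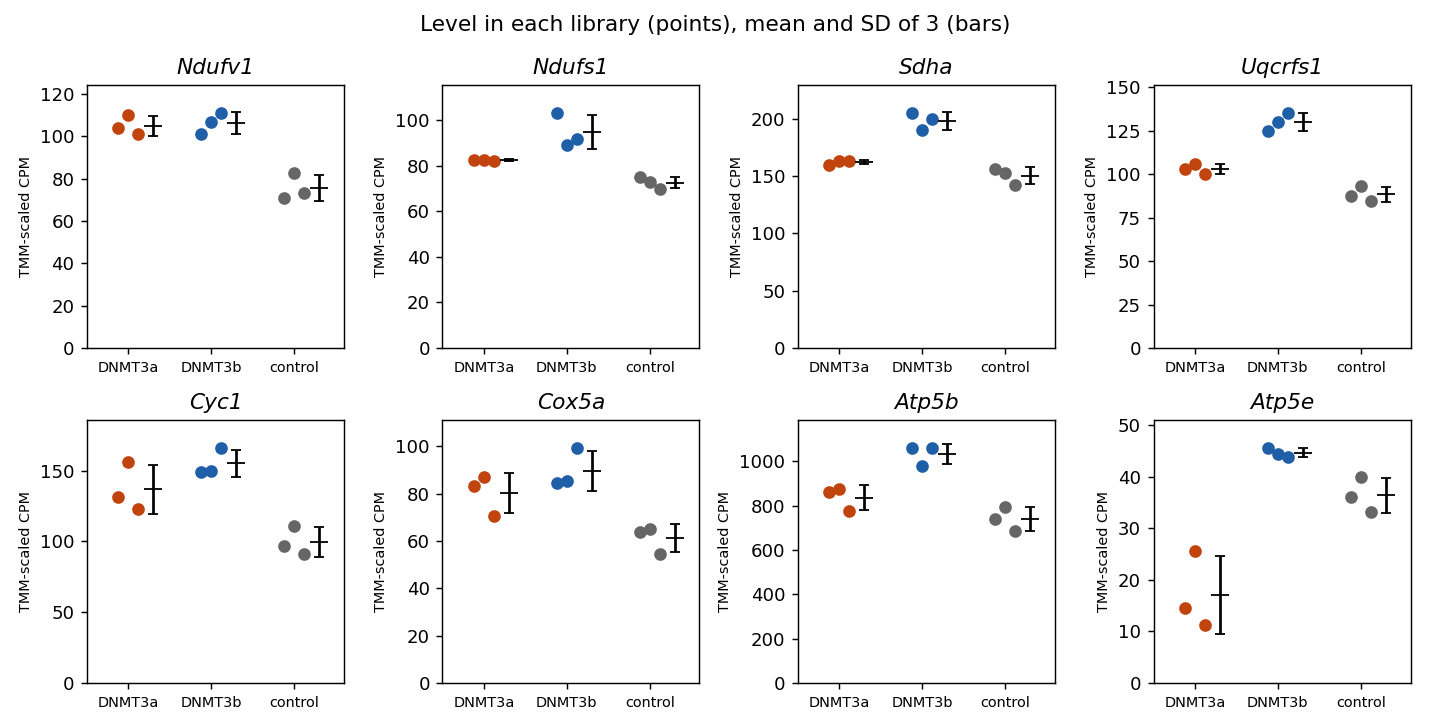
TMM-scaled CPM of 8 subunits in each library (points), with the mean and SD of 3 libraries beside them (bars), for DNMT3a siRNA, DNMT3b siRNA and control siRNA. DNMT3b libraries lie above control libraries in all 8 panels, while DNMT3a libraries of Atp5e, at 11.2 to 25.6 CPM, lie below those of both other groups.

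After DNMT3a siRNA fewer subunits passed: 9 rose and 1 fell of 70, where 4.87% of all genes tested rose (5.34% of genes with a mean of at least 10 CPM) and 5.22% fell. The median log2 fold change of the subunits was 0.24, against 0.02 over all genes, and 65 of 70 values were above 0, against 53.1% of all genes. In 17 subunits all DNMT3a libraries lay above all control libraries, against 14.1% of all genes. The counts above leave the library number out. Same-numbered libraries of these groups deviated together (r = 0.434, 0.513 and 0.459). Deviations were taken from the mean of the 3 libraries of a group. A number that stands apart in both groups can thus raise all 3 values, and a pairing of all 3 numbers was not shown. With the library number as a block 13 rose and 1 fell, where 1125 of all 16561 genes tested rose and 1245 fell. The block brought Ndufb9 (adjusted p = 0.0321), Uqcrh (adjusted p = 0.0341), Sdhd (adjusted p = 0.0363) and Atp5j (adjusted p = 0.0493) past the threshold. The count of 10 changed subunits was 1 and 3 without DNMT3a 1 and 2, 6, 3 and 4 without DNMT3b 1, 2 and 3, and 3, 16 and 1 without control 1, 2 and 3, and it was 1 when only these 2 groups entered the fit. It was 11 by DESeq2 and 4 without all libraries numbered 2.

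The 9 subunits that rose after DNMT3a siRNA lay in complexes I, III and IV, and each also passed after DNMT3b siRNA; both comparisons share the control libraries. Ndufv1 had 104, 110 and 101 CPM in DNMT3a libraries, against 70.9, 82.7 and 73.3 CPM in control libraries (0.47 ± 0.08; adjusted p = 0.00525), with no overlap, and was past the threshold in all 15 alternatives. It was the lone member of which this can be said in this comparison. Uqcrc1, a core protein of complex III, had 172, 173 and 153 CPM in DNMT3a libraries, against 116, 138 and 112 CPM in control libraries (0.44 ± 0.09; adjusted p = 0.0132). Cyc1 had 131, 156 and 123 CPM, against 96.6, 111 and 90.9 CPM in control libraries (0.46 ± 0.11; adjusted p = 0.0224). In neither gene did the groups overlap. The remaining rises were those of Ndufa1 (0.45), Ndufb7 (0.45), Ndufa10 (0.31) and Ndufa9 (0.30) in complex I, and Cox5b (0.48) and Cox5a (0.39) in complex IV, with adjusted p from 0.0308 to 0.0478. Each of these 6 lost the threshold in at least 7 of 15 alternatives.

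Several central subunits did not pass after DNMT3a siRNA. Uqcrfs1 had 103, 106 and 100 CPM in DNMT3a libraries, against 87.5, 93.2 and 84.4 CPM in control libraries (0.22 ± 0.07; adjusted p = 0.0708). Sdha had 160, 163 and 163 CPM in DNMT3a libraries, against 156, 153 and 142 CPM in control libraries (0.11 ± 0.07; adjusted p = 0.384). In both genes every DNMT3a library lay above every control library, by a small margin. Atp5b had 860, 876 and 774 CPM in DNMT3a libraries, against 742, 795 and 684 CPM in control libraries (0.18 ± 0.09; adjusted p = 0.264), and the ranges overlapped. Sdhb (0.25 ± 0.10; adjusted p = 0.154) and Ndufs1 (0.18 ± 0.08; adjusted p = 0.159) did not pass either. By complex, the medians were 0.18 in complex I, 0.24 in complexes II and III, 0.35 in complex IV and 0.27 in complex V.

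Atp5e, which encodes the small epsilon subunit at the foot of the ATP synthase shaft, was the one subunit that fell. It had 14.5, 25.6 and 11.2 CPM in DNMT3a libraries, 45.6, 44.4 and 43.9 CPM in DNMT3b libraries and 36.0, 40.0 and 33.1 CPM in control libraries. The DNMT3a libraries lay below all 6 others, 2.13-fold lower than control libraries by the fit (log2 fold change −1.09 ± 0.25; adjusted p = 0.0269, and 0.00865 with the block). The adjusted p ran from 5.88e-05 to 0.107 over 15 alternatives and passed in 8; the fold change ran from −1.52 to −0.86. The gene (ENSMUSG00000016252) lies at chr2:174461072-174464105 (GRCm38) on the minus strand, overlaps no other annotated gene, and all its 50-base stretches were unique. Its nearest neighbour, Prelid3b, lies 961 bases away on the same strand and was at 0.13 ± 0.09 (adjusted p = 0.440). Further off, Nelfcd, at 33569 bases, was higher after DNMT3a siRNA (0.40 ± 0.09, adjusted p = 0.0188). Ctsz, at 22032 bases, did not pass (−0.23 ± 0.07, adjusted p = 0.0761), and Tubb1 was not tested. The other 4 subunits of the ATP synthase head and its central shaft lay between 0.08 and 0.27 and did not pass. The share of alignments that were not unique was 36.6% to 40.1% in DNMT3a libraries, 41.5% to 42.5% in DNMT3b libraries and 41.3% to 42.5% in control libraries; its part in this result was not tested.

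Set against each other, DNMT3a libraries were lower than DNMT3b libraries in 5 of 70 subunits and higher in 0 (29 lower and 0 higher at an unadjusted p under 0.05), where 5.08% of all genes tested were lower (6.87% of genes with a mean of at least 10 CPM) and 4.47% higher. The share of subunits called lower was thus near that of genes with a mean of at least 10 CPM. The median log2 fold change of the subunits was −0.24, against 0.01 over all genes, and 3 of 70 values were above 0. In 31 of the 70 subunits all DNMT3a libraries lay below all DNMT3b libraries, against 16.1% of all genes. Atp5e was lower by −1.38 ± 0.25 on the log2 scale (adjusted p = 0.0118). Uqcrfs1 (−0.33 ± 0.07; adjusted p = 0.0151) and Sdha (−0.29 ± 0.07; adjusted p = 0.0282) were lower with no overlap between the groups. Ndufb2, an accessory subunit of low level, was lower by −0.56 ± 0.15 (adjusted p = 0.0464). For Ndufv1, the difference was −0.02 ± 0.08. The count of 5 was 0, 17 and 1 without DNMT3a 1, 2 and 3, 2, 1 and 1 without DNMT3b 1, 2 and 3, and 8 without control 2, and 13 without all libraries numbered 2; it was 9 by DESeq2, 9 when only these 2 groups were fitted and 2 with scaling by library size alone.

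**Figure D4:**
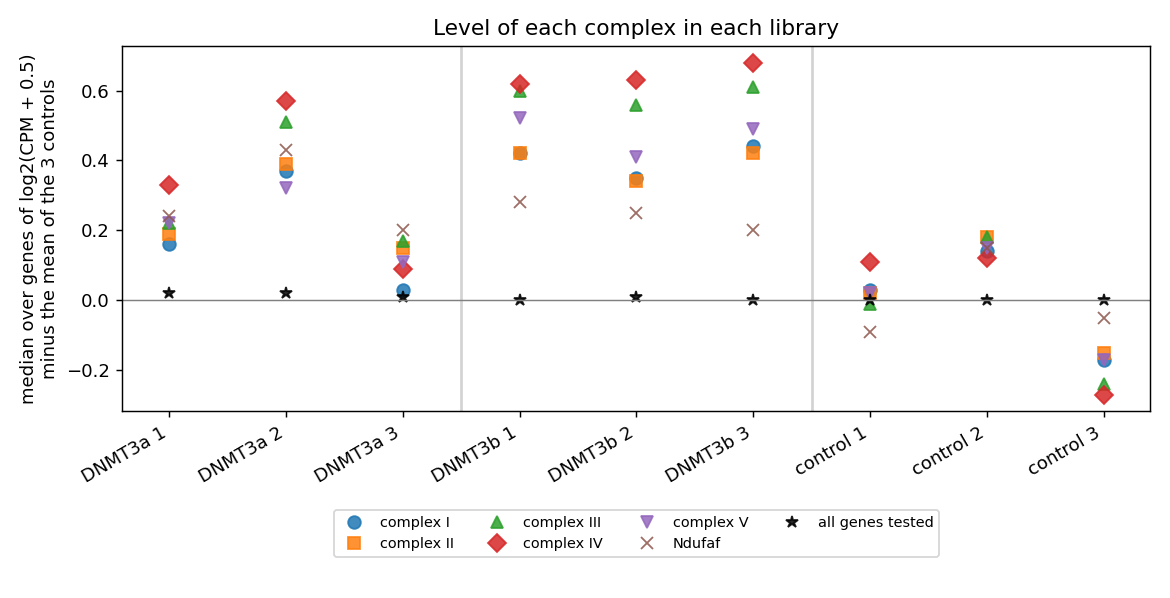
Median over the genes of each complex of log2(CPM + 0.5) minus the mean of the 3 control libraries (vertical axis), in each of the 9 libraries. In the DNMT3b libraries the 5 complexes lie between 0.34 and 0.68, above every control value; DNMT3a 3, between 0.03 and 0.17, lies below control 2 in each of them.

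The level of the subunits was also followed library by library. The median over the 70 subunits of log2(CPM + 0.5), less the mean of the control libraries, was 0.19, 0.38 and 0.08 in DNMT3a libraries, 0.49, 0.41 and 0.49 in DNMT3b libraries and 0.03, 0.15 and −0.17 in control libraries. The DNMT3b libraries stood above all others, whereas DNMT3a 3 lay below control 2. Within the 5 complexes, control 3 was the lowest control library in all 5 and DNMT3a 2 the highest DNMT3a library in all 5. Of the 14 subunits with under 1 kb of exon and the 56 longer ones, 6 and 29 rose after DNMT3b siRNA (medians 0.44 and 0.46), and 1 and 8 rose after DNMT3a siRNA (medians 0.20 and 0.24). The 5 subunits lower in DNMT3a than in DNMT3b libraries were all among the longer ones, and the medians of that difference were −0.26 and −0.21. Exon length merges all annotated transcripts of a gene, so a gene counted as longer can have short transcripts. By this measure Atp5e has 1756 bases and Ndufb2 5628 bases. Other short protein-coding genes, 231 with under 1 kb of exon, had a median of 0.02 after DNMT3a siRNA, 0.14 after DNMT3b siRNA and −0.12 between the siRNAs. The part of gene length in the subunit results was not tested.

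The 8 Ndufaf assembly factors of complex I had 0 members past the threshold in each of the 3 comparisons, by edgeR and by DESeq2. At an unadjusted p under 0.05, 2 were higher after DNMT3a siRNA, 3 after DNMT3b siRNA and 0 differed between the siRNAs. Without DNMT3a 2, 1 passed after DNMT3b siRNA, and without control 2, 1 passed after either siRNA. Without all libraries numbered 2, 1 passed after DNMT3b siRNA and 0 in the other comparisons. After DNMT3b siRNA their median log2 fold change was 0.20, and 2 of the 8 lay wholly above control libraries, against 13.8% of all genes. After DNMT3a siRNA the median was 0.27, and 4 of the 8 did so, against 14.1% of all genes. Ndufaf5 came nearest after DNMT3b siRNA, with 12.3, 11.7 and 12.6 CPM in DNMT3b libraries, against 8.24, 9.59 and 8.80 CPM in control libraries (0.46 ± 0.14; adjusted p = 0.0872), and Ndufaf6 after DNMT3a siRNA, with 5.29, 5.12 and 4.22 CPM in DNMT3a libraries, against 3.59, 3.90 and 2.92 CPM in control libraries (0.49 ± 0.17; adjusted p = 0.0922). Neither pair of groups overlapped. The lowest were Ndufaf8 after DNMT3a siRNA (−0.10 ± 0.16) and Ndufaf2 after DNMT3b siRNA (−0.18 ± 0.20). Summed over the 8 genes, levels were 76.8, 86.3 and 73.2 CPM in DNMT3a libraries, 81.1, 74.3 and 75.5 CPM in DNMT3b libraries and 64.7, 70.1 and 63.0 CPM in control libraries. These sums overlapped between DNMT3a and DNMT3b libraries. The median log2 fold change of DNMT3a against DNMT3b libraries was 0.08 over the 8 factors and −0.24 over the 70 subunits. Of the 70 subunits 5 passed as lower, near the share of genes with a mean of at least 10 CPM (6.87%). The difference between subunits and assembly factors was not tested, and the factors' lower counts give them larger errors, with standard errors of 0.11 to 0.20.

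The remaining members gave no call with all 9 libraries unless the library number entered as a block. With the block, Ndufa4 passed as higher after DNMT3b siRNA (adjusted p = 0.0495). Without it the difference was 0.40 ± 0.15 (adjusted p = 0.140), and every DNMT3b library lay above every control library. Ndufa4 had 57.1, 72.0 and 50.1 CPM in DNMT3a libraries, 81.2, 69.9 and 75.6 CPM in DNMT3b libraries and 62.9, 61.8 and 47.0 CPM in control libraries. Ndufa4l2, its paralogue known to respond to low oxygen, had 2.21, 2.48 and 3.79 CPM in DNMT3a libraries, 9.37, 16.9 and 14.9 CPM in DNMT3b libraries and 0.390, 43.2 and 1.85 CPM in control libraries. Every DNMT3a library lay below every DNMT3b library, while the control libraries alone spanned the whole range, control 2 being the highest of all 9. DNMT3a against DNMT3b libraries gave −2.28 ± 1.40 (adjusted p = 0.361), which passed when only these 2 groups were fitted (adjusted p = 0.00223) and without control 2 (adjusted p = 0.0183), over alternatives that ran up to 0.604. Against control libraries DNMT3b libraries passed as higher only without control 2 (adjusted p = 0.00904, and 0.727 to 1 in the other alternatives), and DNMT3a libraries passed in none (0.181 to 0.669); DESeq2 gave no adjusted p for this gene. Atp5s had 3.70, 5.15 and 3.79 CPM in DNMT3a libraries, 3.38, 4.75 and 3.75 CPM in DNMT3b libraries and 3.84, 4.16 and 3.33 CPM in control libraries, which overlapped.

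Other genes of the pathway were counted from lists. Of 10 cytochrome oxidase subunits outside the name rule, 3 rose and 1 fell after DNMT3a siRNA, and 5 rose and 0 fell after DNMT3b siRNA. The muscle forms Cox7a1 and Cox8b rose in both: Cox8b averaged 3.19 CPM in DNMT3a libraries, 4.33 CPM in DNMT3b libraries and 1.03 CPM in control libraries (1.63 ± 0.41 and 2.07 ± 0.41). Cox6a2, another muscle form, rose by 2.09 ± 0.40 after DNMT3a siRNA. After DNMT3b siRNA all 10 fold changes of the list, that of Cox6a2 included, were above 0, against 7 after DNMT3a siRNA. The widely expressed Cox6a1 (0.65 ± 0.11) and Cox8a (0.66 ± 0.11) rose after DNMT3b siRNA. Cox7a2, the form found in most tissues, fell after DNMT3a siRNA (−0.95 ± 0.24; adjusted p = 0.0376), with a mean of 16.1 CPM in DNMT3a libraries, 49.4 CPM in DNMT3b libraries and 31.2 CPM in control libraries, the order of group means seen for Atp5e. With the library number as a block a second gene of the list, Cox6b2, which is known from testis, passed as lower after DNMT3a siRNA (−0.65 ± 0.32 and adjusted p = 0.245 without the block, 0.0258 with it).

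Of 39 measured assembly factors without the Ndufaf prefix, 5 rose after DNMT3a siRNA, among them Cox10, which makes a haem precursor for complex IV (0.57 ± 0.09), and Ecsit, a complex I factor (0.49 ± 0.11). After DNMT3b siRNA 4 rose, among them Cox18 (0.55 ± 0.09) and the complex III factor Uqcc1 (0.51 ± 0.10). Of the 39, 0 fell, also at an unadjusted p under 0.05 and by DESeq2. Of 14 genes for coenzyme Q and cytochrome c, 2 rose after either siRNA, Coq8a by 1.28 ± 0.22 after DNMT3a siRNA and 1.47 ± 0.23 after DNMT3b siRNA. Of 13 citric acid cycle genes, 3 rose and 1 fell (Sucla2, −0.51 ± 0.09) after DNMT3a siRNA, and 5 rose after DNMT3b siRNA. These counts stand beside backgrounds of 4.87% higher and 5.22% lower after DNMT3a siRNA, and 3.52% and 2.12% after DNMT3b siRNA.

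Mitochondrial genes of other roles stand beside the same backgrounds, 4.87% higher and 5.22% lower after DNMT3a siRNA and 3.52% and 2.12% after DNMT3b siRNA. Of 76 mitochondrial ribosome proteins, Mrps31 rose after DNMT3a siRNA (0.57 ± 0.13) and Mrps23 after DNMT3b siRNA (0.40 ± 0.10), with a median of 0.11 over the list in both comparisons. Mrps23 also passed after DNMT3a siRNA with the block (0.33 ± 0.10; adjusted p = 0.0462, and 0.0525 without it). Of 16 genes that copy, transcribe or process mitochondrial DNA, 0 passed in either by edgeR or DESeq2; at an unadjusted p under 0.05, 1 was higher and 2 lower after DNMT3a siRNA and 0 differed after DNMT3b siRNA. Of 13 import and carrier genes, Tomm20 (−0.44 ± 0.08) and Vdac1 (−0.32 ± 0.08) fell after DNMT3a siRNA and 0 passed after DNMT3b siRNA by edgeR or DESeq2 (3 higher at an unadjusted p under 0.05). With the block, Slc25a4, the ADP/ATP carrier of heart and muscle, passed as higher after DNMT3a siRNA (0.30 ± 0.10; adjusted p = 0.0461, and 0.0789 without it).

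Of 9 nuclear regulators of respiratory genes, 3 rose and 1 fell after DNMT3a siRNA, where 4.87% of all genes rose and 5.22% fell, and 4 rose after DNMT3b siRNA, where 3.52% rose. Ppargc1a, a coactivator that drives mitochondrial gene expression, averaged 9.14 CPM in DNMT3a libraries, 10.6 CPM in DNMT3b libraries and 3.59 CPM in control libraries (1.35 ± 0.25 and 1.56 ± 0.25). Ppargc1b rose by 1.08 ± 0.13 and 1.22 ± 0.13, and Esrrg, an oestrogen-related receptor, by 0.71 ± 0.20 and 1.30 ± 0.19. Gabpa, an ETS factor, fell after DNMT3a siRNA (−0.36 ± 0.09; adjusted p = 0.0263). Its exons overlap those of the member Atp5j on the other strand, so reads of these genes cannot be told apart there.

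**Figure D5:**
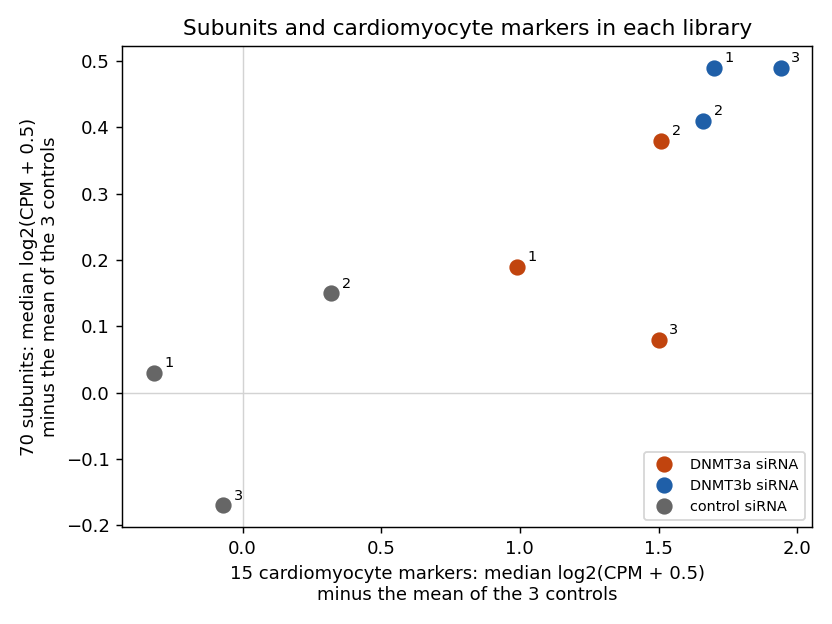
Median log2(CPM + 0.5) of the 70 subunits (vertical axis) against that of 15 cardiomyocyte markers (horizontal axis), both less the mean of the 3 control libraries; each point is 1 library with its number. The 3 DNMT3b libraries lie at 1.66 or more on the marker axis and at 0.41 or more on the subunit axis, the DNMT3a libraries at 0.99 to 1.51 and 0.08 to 0.38, and the control libraries at −0.32 to 0.32 and −0.17 to 0.15.

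Cardiomyocyte markers were higher in the same groups, with larger medians than the subunits. The 15 markers summed to 6142 to 7780 CPM in DNMT3a libraries, 7581 to 9068 CPM in DNMT3b libraries and 2573 to 3397 CPM in control libraries. Of the 15, 12 rose after DNMT3a siRNA (median 1.23) and 13 after DNMT3b siRNA (median 1.78). Over all genes tested, 4.87% rose and 5.22% fell after DNMT3a siRNA, and 3.52% and 2.12% after DNMT3b siRNA. Of the 10 fibroblast and matrix markers, 4 fell after each siRNA, Dcn, Tcf21 and Fbn1 after both, with medians of −0.36 after DNMT3a siRNA and −0.44 after DNMT3b siRNA and values above 0 in 1 and 2 of 10. The 8 macrophage markers had medians of −2.02 and −0.84. After DNMT3a siRNA 3 of them fell, and 8 with the block, where 1245 of all 16561 genes tested fell. They summed to 6.65 to 13.3, 13.8 to 28.7 and 17.3 to 46.5 CPM, in DNMT3a, DNMT3b and control libraries. The 8 endothelial markers summed to 145 to 175, 205 to 226 and 144 to 190 CPM in the same order of groups, so that the DNMT3b libraries were above the others there too. The 7 smooth muscle and pericyte markers summed to 7930 to 9080, 8123 to 9674 and 5613 to 8249 CPM, and the 8 epicardial markers to 1173 to 1499, 1068 to 1542 and 1698 to 1966 CPM. With the block, 2 smooth muscle genes, Acta2 and Cspg4, passed as higher after DNMT3a siRNA, where 1125 of all 16561 genes tested did. Of 7 erythroid genes, 4 globin genes were at 0 throughout. The part of the cell mixture in the subunit results was not tested. On the scale used for the subunits, the cardiomyocyte marker median was 0.99 to 1.51 in DNMT3a libraries, 1.66 to 1.94 in DNMT3b libraries and −0.32 to 0.32 in control libraries.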

How the data were processed

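For each library the authors deposited raw counts of reads, as whole numbers for 43629 Ensembl genes, not normalised. The mm10 and GRCm38 builds and the tools FastQC, HTSeq (which counts reads per gene) and TopHat2 (which aligns across splice sites) are named in the submitters' processing notes; settings, strand handling and annotation release were not given in the sources used here. Per the tables' summary lines, 36.6% to 42.5% of each total had no unique place, 8.4% to 11.9% fell outside any feature and 1.92% to 2.45% were ambiguous; none of these entered library sizes or tests. Symbols, positions and exon lengths came from GENCODE M21.

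Counts were filtered (filterByExpr, minimum count 10, minimum total 15), scaled by TMM and fitted in 1 robust quasi-likelihood model over the 9 libraries with group as the only term (edgeR 4.0.16, R 4.3.3, 6 residual degrees of freedom). Groups were compared pairwise by the two-sided F test with Benjamini-Hochberg adjustment over 16561 genes. A value after ± is a standard error. The model was tested on simulated data. Same-numbered DNMT3a and control libraries deviated together across genes (r = 0.434, 0.513 and 0.459), so these are read as paired from the data; what a number stands for is not stated in the labels. Alternatives were other scaling, no filter, DESeq2 1.42.0, the replicate block, the 2 groups alone, each library left out and, added after seeing the data, all libraries numbered 2 left out.

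Members, lists and tests were chosen with earlier results of these data known, and none of the counts over them is independent support. Members past the threshold were to be named up to 30, smallest p first; the 7 others named (Atp5c1, Ndufb7, Ndufa11, Cox6b1, Atp5h, Atp5o and Ndufb2), and the subunits and assembly factors given as examples of values that did not pass, were chosen after their values were seen. Some single-gene results are not reported here.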

Additional observations from a re-analysis of the deposited data

How the results depend on the processing

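No called member changed direction under any alternative tried, but few calls passed in every one: 2 of 35 after DNMT3b siRNA (Uqcrfs1 and Ndufa1), 1 of 10 after DNMT3a siRNA (Ndufv1) and 0 of 5 between the siRNAs passed in all 15. Leaving out 1 library at a time gave 1 to 16 changed subunits after DNMT3a siRNA, 2 to 47 after DNMT3b siRNA and 0 to 17 between the siRNAs, and 0 to 1, 0 to 1 and 0 Ndufaf genes. Fewer libraries enter these fits; the cause of single shifts was not tested. With only the 2 groups compared, 1 subunit changed after DNMT3a siRNA and 9 between the siRNAs. Without all libraries numbered 2, 4 subunits changed after DNMT3a siRNA, 13 between the siRNAs, and 1 Ndufaf gene after DNMT3b siRNA. Between the siRNAs the count was 2 with scaling by library size alone and 9 by DESeq2.

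With the replicate block, 14 subunits changed after DNMT3a siRNA and 13 between the siRNAs. After DNMT3b siRNA 49 subunits, 1 Ndufaf gene (Ndufaf5, adjusted p = 0.0484) and Ndufa4 (adjusted p = 0.0495) passed. Of all 16561 genes tested, 1125 were then higher and 1245 lower after DNMT3a siRNA. After DNMT3b siRNA these were 980 and 821, and between the siRNAs 1132 and 1381. In the comparisons with DNMT3b libraries, same-numbered libraries correlated with r of 0.0334 to 0.212, so the number is not read as a pairing there either. Members with few counts, such as Ndufb4 and the Ndufaf genes, have the least precise values.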
